A study of Mus musculus with 13 samples.

Results

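The genes described here are Chil1, Lrg1, Lcn2, Saa1, Saa2, Saa3, Hp, Stat3, Socs3 and Il13ra1, 10 of the 24421 gene symbols in a table of read counts from mouse mammary tumors. Chil1 and Lrg1 were selected on measured values, because both were high in recurrent tumors of mice kept on stavudine. The other 8 were taken with them as genes linked to STAT3 and to the acute-phase response. What the recurrent stavudine tumors show for Chil1 and Lrg1 is therefore a description and not a test. All 10 symbols were found, and all 10 passed the filter on low counts.

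The acute-phase response is the change in secreted proteins that follows injury, infection or inflammation. Cytokines of the interleukin-6 family bind receptors that share gp130 and activate the transcription factor STAT3, which with C/EBP and NF-kB factors raises genes for serum amyloid A proteins, haptoglobin, lipocalin 2 and others, in liver and also in epithelia. In the mammary gland STAT3 is known for its part in involution after weaning, when LIF activates it and many of the same secreted proteins are made by the gland itself.

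The study asked how a nucleoside inhibitor of reverse transcriptase affects mammary tumors and their relapse under a targeted drug. RNA came from 13 libraries of female MMTV-HER2/Neu mice, in which a rat HER2/Neu cDNA is driven in breast epithelium by the long terminal repeat promoter of mouse mammary tumor virus. The strain was labelled FVB/N-TgN with the transgene name (MMTV-HER2/neu) 202Mul/J for every library, glands included, and the genotype label was Wild type. The 11 tumors were individual tumors, and 2 libraries were mammary glands. Primary untreated tumors (n = 3) arose without drug. Primary stavudine tumors (n = 3) arose in mice that drank stavudine at 1 mg/mL. Mice of the recurrent 17-DMAG group (n = 3) were injected 3 times a week, until the end of the experiment, with 20 mg/kg of the HSP90 inhibitor 17-DMAG, and their tumors had vanished and then grown back. The recurrent 17-DMAG plus stavudine group (n = 2) had the same injections and relapse, with stavudine at 1 mg/mL in the drinking water. Stavudine was given from 2 months of age or once a tumor had appeared. Ages at harvest, and whether any of the tumors came from the same mouse, are not given in the sources used here, so the tests measure the spread between these tumors.

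Levels are given as CPM, the count of a gene per 1000000 counts after scaling each library by its TMM factor. The libraries held between 39921388 and 56887708 counts, and 3 counts, taken as the limit of detection, equalled 0.0587 to 0.107 CPM. Low counts were mostly even numbers, and whether both mates of a read pair were counted is not given in the sources used here, so the number of fragments behind a low count of Saa1, Saa2 or Saa3 is not known. Several libraries stood apart from the rest of their group. Mammary gland 2 carried 735253 CPM of 8 milk genes against 28066 in gland 1, and its TMM factor was 0.493. Recurrent 17-DMAG tumor 1 carried 6351 CPM of 10 fibroblast genes and 702 CPM of 10 macrophage genes, against 371 to 1041 and 197 to 245 in the other recurrent 17-DMAG tumors. Skeletal muscle genes summed to 2036 CPM in recurrent 17-DMAG plus stavudine tumor 2 and to 25.6 in tumor 1. The luminal epithelial markers were present in every library, at 1608 to 3092 CPM for 10 genes. In bulk RNA, fewer cells of a type and less RNA per cell cannot be told apart.

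Chil1 encodes a secreted chitinase-like lectin, known in humans as CHI3L1 or YKL-40, which binds chitin without cutting it. Lrg1 encodes a secreted leucine-rich glycoprotein that acts on TGF-beta signalling in blood vessels. In GRCm38, Chil1 (ENSMUSG00000064246.10) lies on chromosome 1 at 134182176 to 134190181 on the plus strand, and Lrg1 (ENSMUSG00000037095.8) on chromosome 17 at 56119678 to 56122001 on the minus strand. Saa1 and Saa2 encode the acute serum amyloid A proteins, which replace apolipoprotein A-I on high-density lipoprotein in inflammation. They lie close together on chromosome 7, at 46740497 to 46742980 and 46751790 to 46754313, on opposite strands. Socs3 encodes the feedback inhibitor that binds gp130 and its kinases after STAT3 activation, and lies on chromosome 11 at 117966079 to 117970047. These 5 genes carry the patterns described below, so the start of each is shown, from 250 bases before the RefSeq start site to 30 bases after it. The sequences are from RefSeq on GRCm38.p6 and run along the gene's own strand, at chr1:134181906-134182185 (plus strand) for Chil1, chr17:56121917-56122196 (minus strand) for Lrg1, chr7:46742951-46743230 (minus strand) for Saa1, chr7:46751583-46751862 (plus strand) for Saa2 and chr11:117969337-117969616 (minus strand) for Socs3. Capitals mark matches to 4 motifs: TTCNNNGAA for STAT factors, TTGCNNAA for C/EBP factors and the NF-kB motif on both strands, and the TATA box TATAAA on the gene's strand.
Chil1: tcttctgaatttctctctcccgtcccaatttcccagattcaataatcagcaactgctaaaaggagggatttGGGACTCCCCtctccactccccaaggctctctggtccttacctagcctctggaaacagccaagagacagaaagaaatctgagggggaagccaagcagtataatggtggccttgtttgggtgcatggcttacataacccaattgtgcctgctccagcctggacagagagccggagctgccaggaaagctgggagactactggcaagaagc
Lrg1: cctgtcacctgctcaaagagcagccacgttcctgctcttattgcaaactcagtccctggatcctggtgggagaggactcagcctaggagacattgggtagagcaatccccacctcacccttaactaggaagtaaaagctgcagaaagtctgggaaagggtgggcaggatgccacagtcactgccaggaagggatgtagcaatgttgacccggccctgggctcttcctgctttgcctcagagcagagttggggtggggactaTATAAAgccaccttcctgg
Saa1: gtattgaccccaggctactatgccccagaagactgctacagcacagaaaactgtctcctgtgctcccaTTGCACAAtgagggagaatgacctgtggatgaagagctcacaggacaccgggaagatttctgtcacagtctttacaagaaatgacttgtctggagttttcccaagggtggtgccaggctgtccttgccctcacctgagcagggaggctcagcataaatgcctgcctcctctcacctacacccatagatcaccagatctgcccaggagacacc
Saa2: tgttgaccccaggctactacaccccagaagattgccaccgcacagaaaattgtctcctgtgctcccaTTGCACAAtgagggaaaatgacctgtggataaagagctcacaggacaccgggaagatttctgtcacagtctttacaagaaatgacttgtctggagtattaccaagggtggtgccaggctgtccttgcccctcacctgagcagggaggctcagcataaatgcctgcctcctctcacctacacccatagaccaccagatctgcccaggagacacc
Socs3: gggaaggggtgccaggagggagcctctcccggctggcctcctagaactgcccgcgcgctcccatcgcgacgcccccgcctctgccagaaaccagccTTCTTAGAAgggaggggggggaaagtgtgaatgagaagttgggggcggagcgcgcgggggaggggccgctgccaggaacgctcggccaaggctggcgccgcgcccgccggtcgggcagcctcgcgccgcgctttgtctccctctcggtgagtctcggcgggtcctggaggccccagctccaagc

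The only match to the STAT motif among the 9 members with a promoter sequence was in Socs3, at position -154 from the start. Of 32851 mouse promoters of the same length, 8.3% held that motif. The C/EBP motif was found in 4 members, at position -182 in Saa1, -183 in Saa2, -99 in Saa3 and -216 in Lcn2, and in 10.8% of all promoters. The NF-kB motif was found in Chil1 alone, at position -179, and in 4.51% of all promoters, while TATAAA was found in Lrg1 alone, at position 11 after the RefSeq start, and in 8.32%. The promoters of Saa1 and Saa2 were identical at 287 of 301 aligned columns (95.35%), and Saa3, at 50.93% and 50.15%, was as far from one as from the other. The windows searched ended 50 bases after the start, no factor binding was measured, and Hp had no sequence in the table used.

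Chil1 was the second most abundant member per kilobase of exon in the primary, recurrent 17-DMAG and recurrent stavudine tumors. Its level was 124, 227 and 263 CPM in the 3 primary untreated tumors and 86.0, 185 and 128 CPM in the 3 primary stavudine tumors. It was 599, 233 and 160 CPM in the recurrent 17-DMAG tumors and 2822 and 3334 CPM in the recurrent 17-DMAG plus stavudine tumors. In the glands it was 182 and 19.6 CPM. The last 2 tumors stood far above everything else: the lower of them was 4.71 times the highest of the 9 other tumors. In order of the group mean the levels were 3078 ± 363 (SD, n = 2) in recurrent 17-DMAG plus stavudine, 331 ± 235 (n = 3) in recurrent 17-DMAG, 205 ± 72.3 (n = 3) in primary untreated, 133 ± 49.9 (n = 3) in primary stavudine and 101 ± 115 CPM (n = 2) in gland. Only the step between the first and the next in that order was free of overlap, and every later pair of neighbours overlapped.

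Lrg1 followed a related but not identical order. It was 8.52, 7.97 and 7.80 CPM in primary untreated tumors, where the 3 tumors were nearly equal, and 4.74, 9.51 and 4.89 CPM in primary stavudine tumors. It was 46.9, 12.6 and 12.2 CPM in recurrent 17-DMAG tumors and 257 and 76.6 CPM in recurrent 17-DMAG plus stavudine tumors. The glands held 34.8 and 94.7 CPM, so that the lower recurrent stavudine tumor lay within the range of the glands, unlike for Chil1. The group means ran from 167 ± 128 CPM (SD, n = 2) in recurrent 17-DMAG plus stavudine through 64.8 ± 42.3 (n = 2) in gland, 23.9 ± 19.9 (n = 3) in recurrent 17-DMAG and 8.10 ± 0.378 (n = 3) in primary untreated to 6.38 ± 2.71 (n = 3) in primary stavudine. Of these neighbours, recurrent 17-DMAG and primary untreated were the pair whose ranges did not overlap. The lower recurrent stavudine tumor was 1.63 times the highest of the 9 other tumors.

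**Figure D1:**
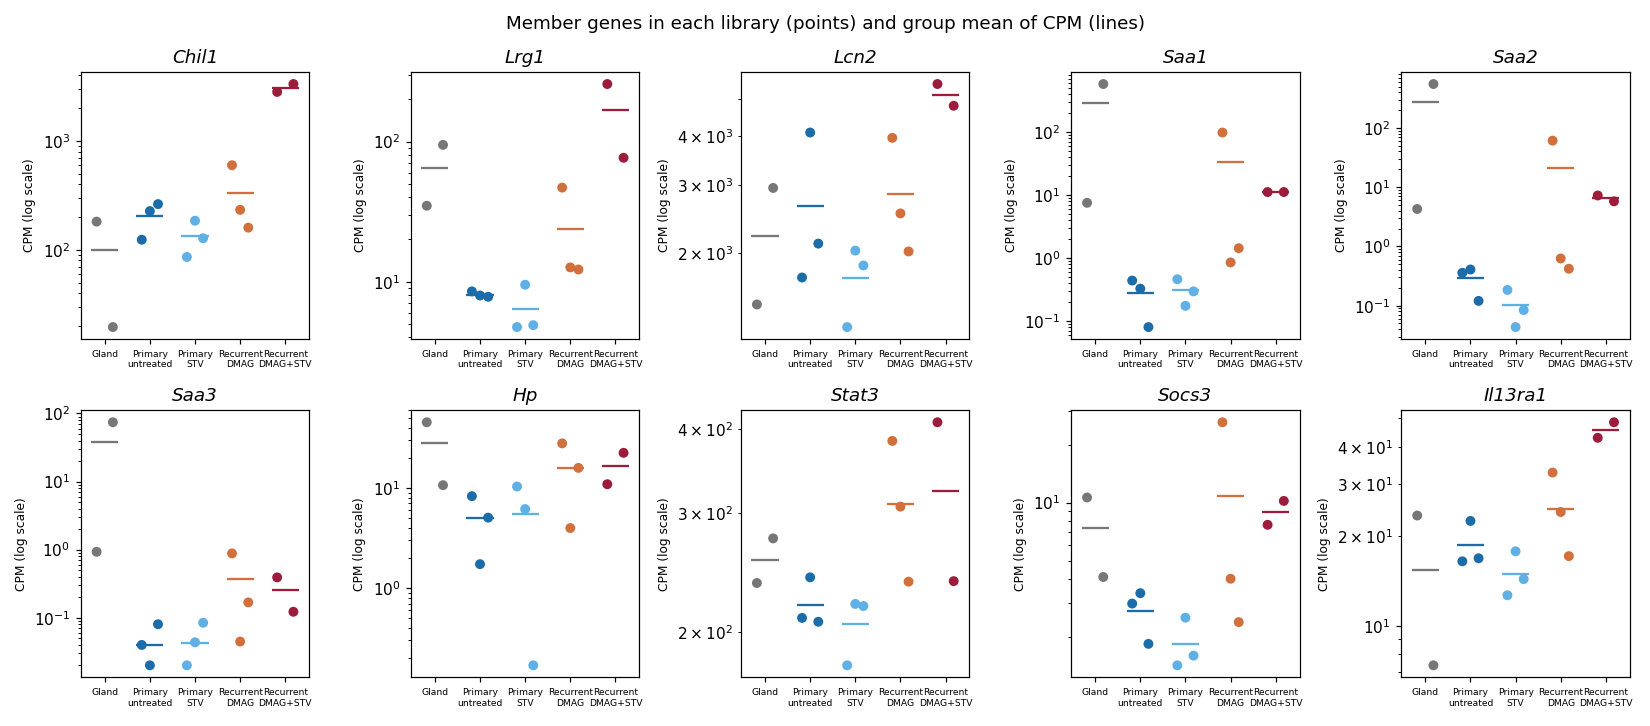
CPM of the 10 members on a log axis in each of the 13 libraries (points) with the group mean of CPM (lines), for gland, primary untreated, primary stavudine (STV), recurrent 17-DMAG (DMAG) and recurrent 17-DMAG plus stavudine tumors. The recurrent stavudine tumors hold Chil1 at 2822 and 3334 CPM against at most 599 in any other tumor, and for Saa1, Saa2, Saa3, Hp and Socs3 the highest tumor is recurrent 17-DMAG tumor 1; a Saa3 count of 0 is drawn at 0.02 CPM.

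Lcn2 encodes lipocalin 2, a secreted protein that binds bacterial siderophores, and it was the most abundant member per kilobase in all 5 groups, at 2140 CPM per kb in primary untreated and 4148 in recurrent stavudine tumors. Its level was 1729, 4092 and 2115 CPM in primary untreated, 1288, 2029 and 1857 in primary stavudine, and 3964, 2530 and 2019 in recurrent 17-DMAG tumors. The recurrent 17-DMAG plus stavudine tumors held 5458 and 4796 CPM, and the glands 1473 and 2944. Primary untreated tumor 2 reached the level of recurrent 17-DMAG tumor 1, and the lower recurrent stavudine tumor was 1.17 times that primary tumor.

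The serum amyloid genes showed another pattern, in which recurrent 17-DMAG tumor 1 was the highest tumor. For Saa1 and Saa2 both recurrent 17-DMAG plus stavudine tumors came next. Saa1 was 0.44, 0.33 and 0.08 CPM in primary untreated tumors and 0.46, 0.17 and 0.30 in primary stavudine tumors, which is 4 to 22 counts. It was 97.6, 0.85 and 1.43 CPM in recurrent 17-DMAG tumors and 11.1 in both recurrent 17-DMAG plus stavudine tumors. The highest of these, recurrent 17-DMAG tumor 1, held 8.79 times the next tumor. In the glands Saa1 was 7.49 and 574 CPM, and gland 2 with its milk transcripts was the highest of all libraries.

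Saa2 went with Saa1 through the tumors and glands. It was 0.12 to 0.41 CPM in primary untreated and 0.04 to 0.18 in primary stavudine tumors. It was 61.1, 0.63 and 0.42 CPM in recurrent 17-DMAG tumors, 7.23 and 5.77 in recurrent 17-DMAG plus stavudine tumors, and 4.28 and 551 in the glands. Saa1 and Saa2 transcripts share 51 of the 560 stretches of 50 bases in Saa1 (9.107%), so part of the reads of either could be lost or assigned to the other. Saa3, which is made locally in mice and shares no such stretch with them, stayed near the limit of detection in tumors. Its counts were 2, 0 and 4 in primary untreated, 0, 2 and 4 in primary stavudine, 38, 2 and 8 in recurrent 17-DMAG and 20 and 6 in recurrent 17-DMAG plus stavudine tumors, against 46 and 2078 in the glands. It is the member that no longer passed the filter on low counts once recurrent 17-DMAG tumor 1 was left out.

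Hp encodes haptoglobin, which binds free hemoglobin. Its levels varied widely inside every group, from 8.28, 1.73 and 5.05 CPM in primary untreated and 10.3, 6.16 and 0.17 in primary stavudine to 27.9, 3.98 and 15.9 in recurrent 17-DMAG tumors. The recurrent 17-DMAG plus stavudine tumors held 10.9 and 22.5 CPM and the glands 45.4 and 10.7. Primary stavudine tumor 3 was the lowest of all, with 8 counts.

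Of the 2 members that act in STAT3 signalling, the factor itself varied little and its inhibitor varied more. Stat3 was 210, 241 and 207 CPM in primary untreated, 179, 220 and 219 in primary stavudine, 384, 307 and 238 in recurrent 17-DMAG, 409 and 238 in recurrent 17-DMAG plus stavudine tumors, and 237 and 276 in glands. The highest tumor was 2.29 times the lowest. Socs3 was 2.99, 3.38 and 1.84 CPM in primary untreated and 1.43, 2.52 and 1.6 in primary stavudine tumors. It was 26.1, 4.02 and 2.39 CPM in recurrent 17-DMAG and 7.66 and 10.2 in recurrent 17-DMAG plus stavudine tumors, an 18.3-fold range over the 11 tumors with recurrent 17-DMAG tumor 1 at the top, and 10.6 and 4.10 in the glands. These are RNA levels, and STAT3 phosphorylation was not measured here.

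Il13ra1 encodes a receptor chain for interleukin-13 and, with the interleukin-4 receptor, for interleukin-4. It was 16.5, 22.6 and 16.9 CPM in primary untreated, 12.7, 17.8 and 14.4 in primary stavudine and 32.9, 24.2 and 17.2 in recurrent 17-DMAG tumors. The recurrent 17-DMAG plus stavudine tumors held 43.0 and 48.6 CPM, and the glands 23.5 and 7.35. The lower recurrent stavudine tumor was 1.31 times the highest other tumor.

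The members differed in which tumor was highest. Both recurrent 17-DMAG plus stavudine tumors were above each of the 9 other tumors for 4 members, Chil1, Lrg1, Lcn2 and Il13ra1, and that was the case for 2.8% of the 16870 genes tested. Recurrent 17-DMAG tumor 1 was the highest of the 11 tumors for 5 members, Saa1, Saa2, Saa3, Hp and Socs3, and for 24.6% of all genes. For Stat3 the highest was recurrent 17-DMAG plus stavudine tumor 1, at 1.07 times the next. The first count includes Chil1 and Lrg1, which were selected for it. Lcn2 and Il13ra1 were taken with them, with the high values of the same tumors known. Nothing is read from that count.

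**Figure D2:**
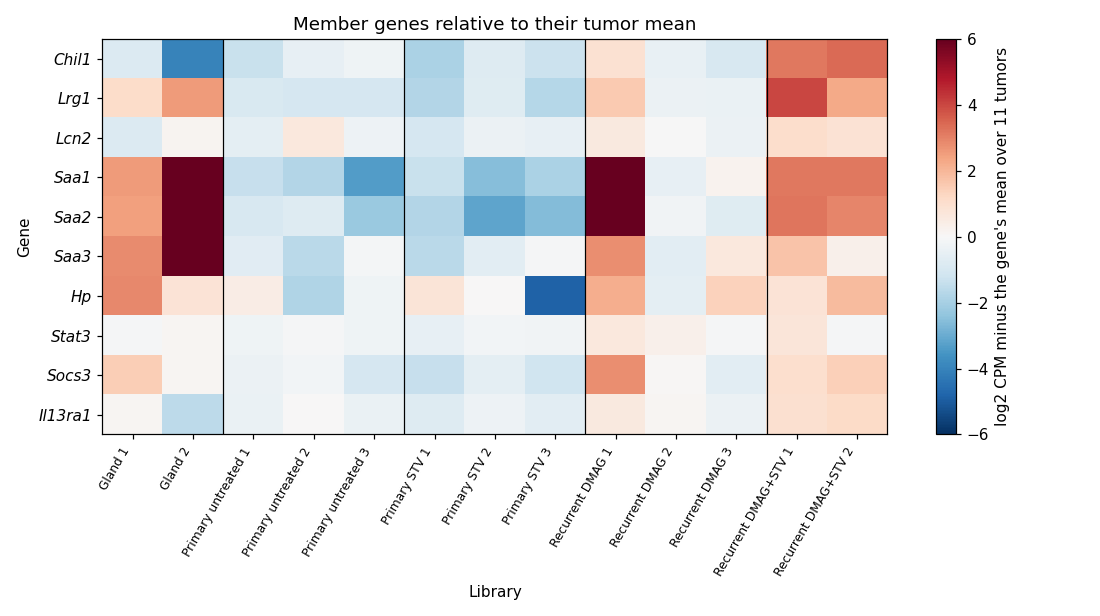
log2 CPM of each member minus its mean over the 11 tumors, for each library; the colors end at 6 and -6. Among the tumors Chil1 and Lrg1 are highest in the recurrent 17-DMAG plus stavudine tumors, gland 2 is low in Chil1 and high in Lrg1, and Saa1 and Saa2 are darkest in recurrent 17-DMAG tumor 1 and gland 2.

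The contrast that selected Chil1 and Lrg1 compared recurrent 17-DMAG plus stavudine with primary stavudine tumors. All 10 members were higher in both recurrent tumors than in each of the 3 primary tumors, while 17.4% of all genes tested were. Chil1 differed by 4.54 on the log2 scale of the fit (23.1 times the mean CPM) and Lrg1 by 4.71 (26.2 times). The others differed by 1.58 for Lcn2, 5.16 for Saa1, 5.95 for Saa2, 1.59 for Hp, 0.66 for Stat3, 2.27 for Socs3 and 1.62 for Il13ra1, and Saa3 rests on at most 20 counts. As Chil1 and Lrg1 were selected on this contrast, and the 8 others were taken with them with its results known, no test is given for it and nothing is read from the count. The narrowest gaps were those of Stat3, with 238 CPM in the lower recurrent tumor against 220 in the highest primary stavudine tumor and of Hp, with 10.9 against 10.3. Over the alternatives the value for Chil1 lay between 4.30 and 4.84 and that for Lrg1 between 3.58 and 5.33.

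The difference with stavudine among recurrent tumors was taken from the 2 recurrent 17-DMAG plus stavudine against the 3 recurrent 17-DMAG tumors. The 2 tumors with stavudine also stand in the selecting contrast. The paper reports that tumors came back later in mice that drank stavudine, while the injections went on. Time to relapse, length of injection and age may thus differ between these groups along with stavudine. Their part in the difference was not tested. Chil1 differed by 3.22 (9.30 times the mean CPM) and Lrg1 by 2.81 (6.98 times), both without overlap and, as selected genes, without a test. Of the 8 other members, 0 passed an adjusted p of 0.05 in edgeR's quasi-likelihood test, as did 0% of all genes, and DESeq2 and limma voom called 0 as well. At an unadjusted p under 0.05 there was 1 of 8, against 7.84% of all genes. This was Il13ra1, with a log2 difference of 0.90 (SE 0.27) and an adjusted p of 0.413 in edgeR. Over its alternatives that change lay between 0.69 and 1.15 and its adjusted p between 0.112 and 1.00. The values of Lcn2 and Il13ra1 did not overlap between the groups, being higher with stavudine, as was the case for 10.9% of all genes. Lcn2 had a log2 difference of 0.86 (SE 0.40, edgeR adjusted p = 0.663). The 8 members were chosen with the high values of these recurrent stavudine tumors known. Nothing is therefore read from these counts or from the lack of overlap.

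The fitted values of Saa1 and Saa2 in that comparison hung on recurrent 17-DMAG tumor 1. With all tumors Saa1 had a log2 difference of -1.58 (SE 1.61) and Saa2 of -1.67 (SE 1.68). Without that tumor they were 3.28 (SE 0.70) and 3.63 (SE 0.69), and Socs3 moved from -0.28 to 1.48. In the same fit 5 of the 7 members then tested were at an unadjusted p under 0.05 (Lcn2, Saa1, Saa2, Socs3 and Il13ra1), against 12.2% of all genes. None passed the adjusted threshold, with edgeR adjusted p of 0.188 to 0.313 for these 5. The members were chosen with the high values of the same recurrent stavudine tumors known, so nothing is read from that count. Without recurrent 17-DMAG tumor 1, Chil1 and Lrg1 were 3.97 and 3.75. Without recurrent 17-DMAG plus stavudine tumor 1, in which Lrg1 was highest, Lrg1 fell to 1.67 and Chil1 was 3.32.

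Recurrence without stavudine was taken from the 3 recurrent 17-DMAG against the 3 primary untreated tumors. Of 10 members, 0 passed the adjusted threshold in edgeR, nor did any in DESeq2 or limma voom, and 0% of all genes passed in edgeR. At an unadjusted p under 0.05 there were 5 of 10 members, all higher in recurrent tumors (Lrg1, Saa1, Saa2, Saa3 and Socs3), against 9.69% of all genes in either direction. Saa3 passed the filter on low counts only with recurrent 17-DMAG tumor 1 present, where it was highest. Its place in that count is therefore not read as a result. Lrg1 had a log2 difference of 1.55 (SE 0.60, edgeR adjusted p = 0.509), and Socs3 of 1.97 (SE 0.78, adjusted p = 0.509). Saa1 and Saa2 had 6.86 (SE 1.80) and 6.11 (SE 1.80), against primary tumors with 4 to 22 counts. Lrg1, Saa1 and Saa2 were higher in every recurrent tumor than in any primary untreated tumor, as were 7.65% of all genes. Chil1 had a log2 difference of 0.68 (SE 0.49, adjusted p = 0.591), Stat3 of 0.48 (SE 0.22, adjusted p = 0.510), and Lcn2 of 0.08 (SE 0.36, adjusted p = 0.933).

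Again 1 tumor carried most of it. Without recurrent 17-DMAG tumor 1 the log2 fold change was 0.62 for Lrg1, 2.01 for Saa1, 0.82 for Saa2, 0.23 for Socs3, 0.32 for Stat3 and -0.050 for Chil1. Saa3 was then no longer tested. Of the 9 members tested 1 (Saa1) stayed at an unadjusted p under 0.05, against 6.02% of all genes.

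**Figure D3:**
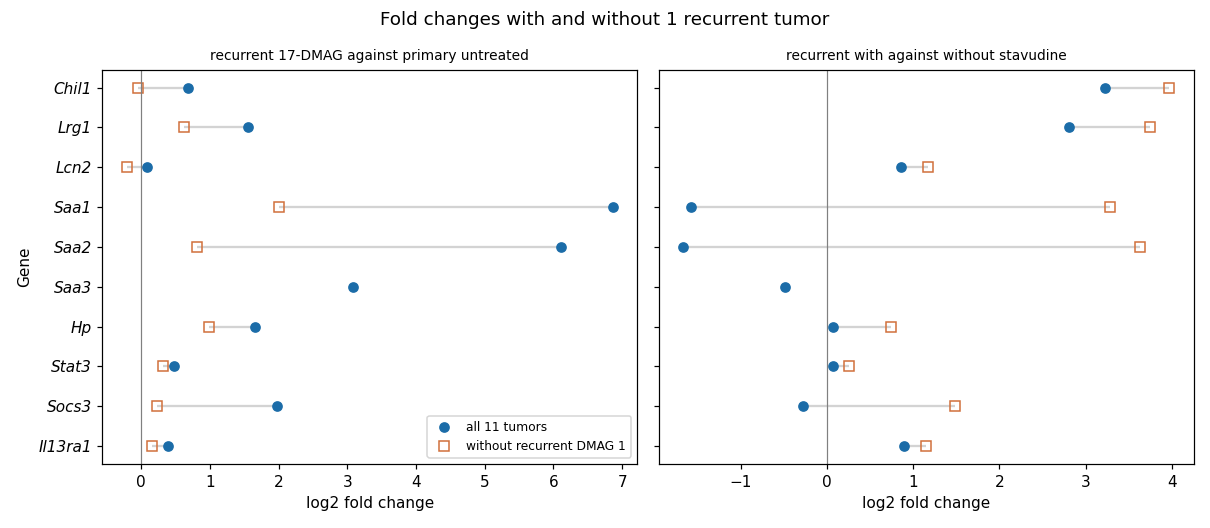
Fitted log2 fold change of each member with all 11 tumors (filled circles) and without recurrent 17-DMAG tumor 1 (open squares), for recurrent 17-DMAG against primary untreated tumors and for recurrent tumors with against without stavudine. Saa1 moves from 6.86 to 2.01 in the first comparison and from -1.58 to 3.28 in the second; Saa3 was not tested without that tumor.

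Stavudine among primary tumors moved none of the members past a threshold. Primary stavudine tumors were compared with the same 3 primary untreated tumors that serve for recurrence. In edgeR 0 of 10 members passed the adjusted threshold (0% of all genes), 0 of 10 were at an unadjusted p under 0.05 (3.76% of all genes), and 0 of 10 were higher in every stavudine tumor (5% of all genes); DESeq2 and limma voom also called 0. Chil1 had a log2 difference of -0.63 (SE 0.49), Lcn2 of -0.63 (SE 0.36), Lrg1 of -0.36 (SE 0.60) and Il13ra1 of -0.33 (SE 0.24), each with an edgeR adjusted p of 1.00.

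Primary untreated tumors were compared with the glands in a fit over all 13 libraries. In edgeR 1 of 10 members, Saa3, passed the adjusted threshold, against 2.11% of all genes. It was lower in tumors, with 2, 0 and 4 counts against 46 and 2078 in the glands (adjusted p = 0.0413). At an unadjusted p under 0.05 there were 4 of 10 members (Lrg1, Saa1, Saa2 and Saa3), against 24.5% of all genes. Lrg1 had a log2 difference of -3.0 (SE 0.70, edgeR adjusted p = 0.0552), with every tumor under 10 CPM and both glands above 30. Saa1 had -10.00 (SE 2.36, adjusted p = 0.0562) and Saa2 -9.86 (SE 2.45, adjusted p = 0.0617), mostly from gland 2. All glands were above all 3 tumors for 6 of 10 members (Lrg1, Saa1, Saa2, Saa3, Hp and Socs3), as for 20.4% of all genes.

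The count of 1 rests on which gland is used. Without gland 1, 6 of 10 members passed, and so did 19.2% of all genes in that fit. Of these, Lrg1 (-3.51), Saa1 (-10.94), Saa2 (-10.82) and Saa3 (-10.72) were lower in tumors, and Chil1 (3.42, edgeR adjusted p = 0.0233) and Il13ra1 (1.38, adjusted p = 0.0291) were higher. Without gland 2, 0 of 10 passed, against 1.45% of all genes, Lrg1 was -2.01, Chil1 was 0.27 and Il13ra1 was -0.24. The glands differed in milk genes, as given above, and in lymphocyte genes, with 233 CPM of 8 B cell genes in gland 1 and 4.5 in gland 2. The part of either in these results was not tested.

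**Figure D4:**
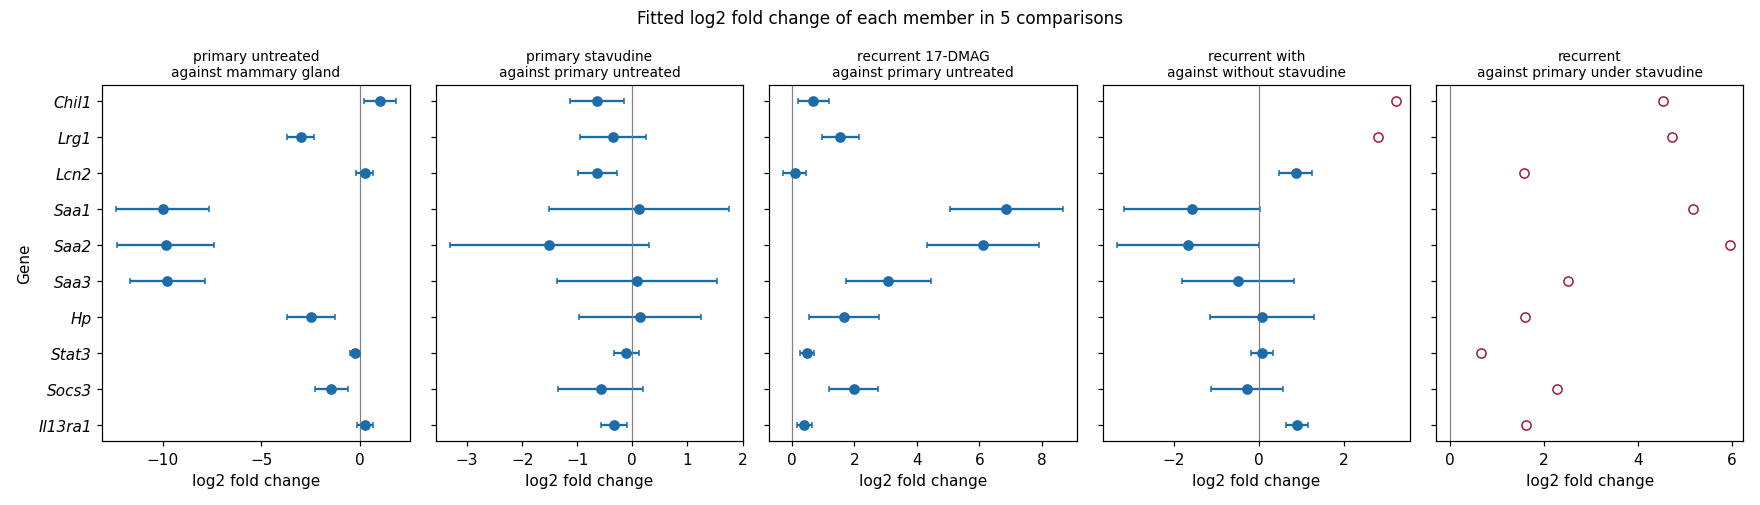
Fitted log2 fold change of the 10 members in 5 comparisons, with bars of 1 SE where a test was made (filled) and no bar where the gene had been selected on the contrast (open). The bars of Saa1, Saa2, Saa3 and Hp are wide in all tested panels, and Chil1 and Lrg1 stand at 3.22 and 2.81 in recurrent tumors with against without stavudine.

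The members can be set beside other genes of the same pathways, in 9 lists with 115 genes: gp130 cytokines and receptors, JAK-STAT signalling and inhibitors, acute-phase proteins, STAT3 target regulators, the chitinase family with CHI3L1 receptors, the interleukin-4 and interleukin-13 axis, partners and receptors of the secreted members, upstream cytokines, and involution genes. In recurrent 17-DMAG against primary untreated tumors 0 of the 99 genes tested passed the adjusted threshold in edgeR, and 14 were higher and 5 lower at an unadjusted p under 0.05, against 9.69% of all genes in either direction. Those with the smallest p were Tlr4, a receptor for bacterial lipopolysaccharide (0.86, SE 0.19), Osmr, the oncostatin M receptor (1.04, SE 0.29), Pim3, a survival kinase (-1.69, SE 0.52), and Acvrl1, a TGF-beta family receptor of endothelium (0.68, SE 0.22). Each had an edgeR adjusted p of 0.509. Osmr was 207, 183 and 121 CPM in the recurrent 17-DMAG tumors and 71.1 to 92.1 CPM in primary untreated tumors. The median log2 fold change was 0.33 over the lists and -0.01 over all genes.

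In recurrent tumors with against without stavudine, 0 of 99 passed the adjusted threshold, and 2 were higher and 7 lower at an unadjusted p under 0.05, a share near the 7.84% of all genes. A2m, the protease inhibitor alpha-2-macroglobulin, stood at -2.35 on the log2 scale (SE 0.61, edgeR adjusted p = 0.331). Arg1, the arginase of macrophages and other cells that interleukin-4 raises, had -2.21 (SE 0.58, adjusted p = 0.332), with 28.8 and 12.6 CPM against 63.9 to 130 CPM. Pim1, another kinase and STAT3 target, had -1.13 (SE 0.41, adjusted p = 0.549), and Cd163, the haptoglobin and hemoglobin receptor of macrophages, had 2.29 (SE 0.74, adjusted p = 0.474). The median was -0.05 over the lists and 0.00 over all genes. Among primary tumors on stavudine 0 of 99 passed, and 2 were higher and 4 lower at an unadjusted p under 0.05, against 3.76% of all genes. The 4 with the smallest p were Tlr4 (0.58, SE 0.19), Pim3 (-1.37, SE 0.52), Junb, an AP-1 factor (-0.86, SE 0.35), and Serpina3n, a protease inhibitor of the acute phase (-0.73, SE 0.30), each with an edgeR adjusted p of 1.00.

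Against the glands, 7 of 101 list genes passed the adjusted threshold in edgeR, against 2.11% of all genes. Orm1 and Orm2, the acute-phase orosomucoids, were lower in tumors, with log2 fold changes of -8.74 and -5.85, as were Il6st, which encodes gp130 (-1.05), the metalloreductase gene Steap4 (-2.13), Pim1 (-2.40) and Il2rg, the shared gamma chain of interleukin receptors (-3.24). Arg1 was higher in tumors by 3.38. Orm1 was 7.86 and 189 CPM in the glands and 0.16 to 0.28 CPM in primary untreated tumors.

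In the contrast that selected Chil1 and Lrg1, 35 of 99 list genes were higher in both recurrent tumors and 11 lower, where 17.4% of all genes were higher and 17.9% lower. The median was 0.37 against 0.01 over all genes, and as this contrast was used for the choice of genes, none of this is a test. Of the 15 involution genes 11 were higher and 0 lower, beside the same 17.4% and 17.9%, and nothing is read from that count. Among them was Igfbp5, which binds insulin-like growth factors in the involuting gland, at 17268 and 17669 CPM against 7714 to 9349 CPM. Cebpd, a C/EBP factor also among them, was at 21.2 and 13.9 against 5.39 to 9.49 CPM. Primary untreated and recurrent 17-DMAG tumors held Igfbp5 at 8014 to 15040 CPM and Cebpd at 7.53 to 26.9 CPM. For Cebpd the recurrent stavudine tumors lay within that range. Lif was 6.0 and 12.8 CPM in recurrent 17-DMAG plus stavudine tumors, 8.85 in recurrent 17-DMAG tumor 1 and 1.42 to 4.46 CPM in the other tumors. Il6 was at most 0.25 CPM in any library.

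Receptors of the secreted members were measured as well. Il13ra2, which is known to bind the Chil1 protein, was at most 0.49 CPM in every library, and Tmem219, its partner, was 10.6 to 18.3 CPM in every tumor. Of the other genes of the chitinase family, Chil3 was at most 0.57 CPM and Chil4 and Chia1 were at a count of 0 in all 13 libraries. Chit1, an active chitinase, was 0.35 to 3.65 CPM, and Chid1, a gene with a chitinase domain, was 30.02 to 76.9 CPM.

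By Pearson correlation of log2 CPM over the 11 tumors, the 5 genes most like Chil1 among 12691 were Il13ra1 (r = 0.96), Lrg1 (0.94), Bace2, a membrane protease (0.93), Ppap2b, a lipid phosphatase (0.92), and Aldh3b1, an aldehyde dehydrogenase (0.91). The 5 most like Lrg1 were Chil1 (0.94), Il13ra1 (0.92), Fcgbp, a mucin-like secreted protein (0.91), Atf5, a stress-response factor (0.91), and Hsp90ab1, the constitutive HSP90 beta (0.91). These values are descriptions and rest in part on the 2 recurrent stavudine tumors, which all of these genes share as points. How far r fell without them differed between genes. Over the 9 other tumors r was 0.91 between Chil1 and Il13ra1, 0.86 between Chil1 and Lrg1, 0.71 for Bace2 with Chil1 and 0.74 for Hsp90ab1 with Lrg1. Without recurrent 17-DMAG tumor 1 as well, over 8 tumors, r was 0.80 for Chil1 and Il13ra1 and 0.61 for Chil1 and Lrg1. Bace2 was 21.7 and 77.6 CPM in the recurrent 17-DMAG plus stavudine tumors and 1.42 to 11.2 CPM in the other tumors.

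Markers of other cells that can make these proteins moved with some of the values. Of 12 neutrophil genes 11 were listed. Their sum was 729 CPM in recurrent 17-DMAG tumor 1, 585 in recurrent 17-DMAG plus stavudine tumor 1 and 14170 in gland 2, and nearly all of it was Ltf, which is also a milk protein, at 713, 576 and 14165 CPM. Without Ltf, a choice made after the values were seen, the sum of 10 genes was 2.85 to 4.29 CPM in primary tumors, 15.8, 4.21 and 3.76 in recurrent 17-DMAG tumors, 9.42 and 9.11 in recurrent 17-DMAG plus stavudine tumors and 19.5 and 4.96 in glands. Elane was at a count of 0 in 10 of the 13 libraries, S100a9 was at most 2.75 CPM in any library and S100a8 at most 4.53.

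Macrophage genes summed to 176 to 236 CPM in primary tumors, 702, 197 and 245 in recurrent 17-DMAG tumors and 399 and 414 in recurrent 17-DMAG plus stavudine tumors. All 10 were higher in both recurrent stavudine tumors than in the primary stavudine tumors, as were 17.4% of all genes. Fibroblast genes summed to 276 to 1010 CPM in primary tumors, 6351, 371 and 1041 in recurrent 17-DMAG tumors and 1558 and 2008 in recurrent 17-DMAG plus stavudine tumors, with 7 of 10 higher against the same 17.4%. Luminal epithelial genes summed to 2585 and 1608 CPM in the last group against 2580 to 3092 in the other tumors. The 3 tumors with the highest macrophage and fibroblast sums were recurrent 17-DMAG tumor 1 and both recurrent 17-DMAG plus stavudine tumors. These were also the 3 highest for Chil1, Lrg1, Il13ra1, Saa1, Saa2 and Socs3, but not for Lcn2, Saa3, Hp and Stat3. The share of all genes with these 3 tumors highest was not taken, so nothing is read from this. The part of macrophages and fibroblasts in these results was not tested.

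Hepatocyte genes summed to 2.82 to 15.7 CPM in tumors and 77.9 and 40.2 CPM in glands. Most of the sum in the glands was the list gene Cyp2e1, at 67.2 and 38.9 CPM, while Alb was 0.40 and 0.36 CPM. Primary stavudine tumor 1, with the sum of 15.7 CPM, held Cyp2e1 at 9.60 CPM. In recurrent 17-DMAG tumor 1, the tumor with the most Saa1 and Hp, the sum was 2.94 CPM and Alb, Apoc3 and Cps1 were at a count of 0. In that tumor Saa1 held 4215 counts. Adipocyte genes summed to 184, 43.1 and 57.8 CPM in primary untreated and 158, 105 and 18.4 in primary stavudine tumors. They summed to 94.9, 29.5 and 129 CPM in recurrent 17-DMAG and 51.6 and 181 in recurrent 17-DMAG plus stavudine tumors. The glands held 1346 and 1066 CPM. In each group but recurrent 17-DMAG these sums ranked the libraries as Hp did. This was seen after the values were known. The part of adipocyte RNA in the Hp values was not tested.

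**Figure D5:**
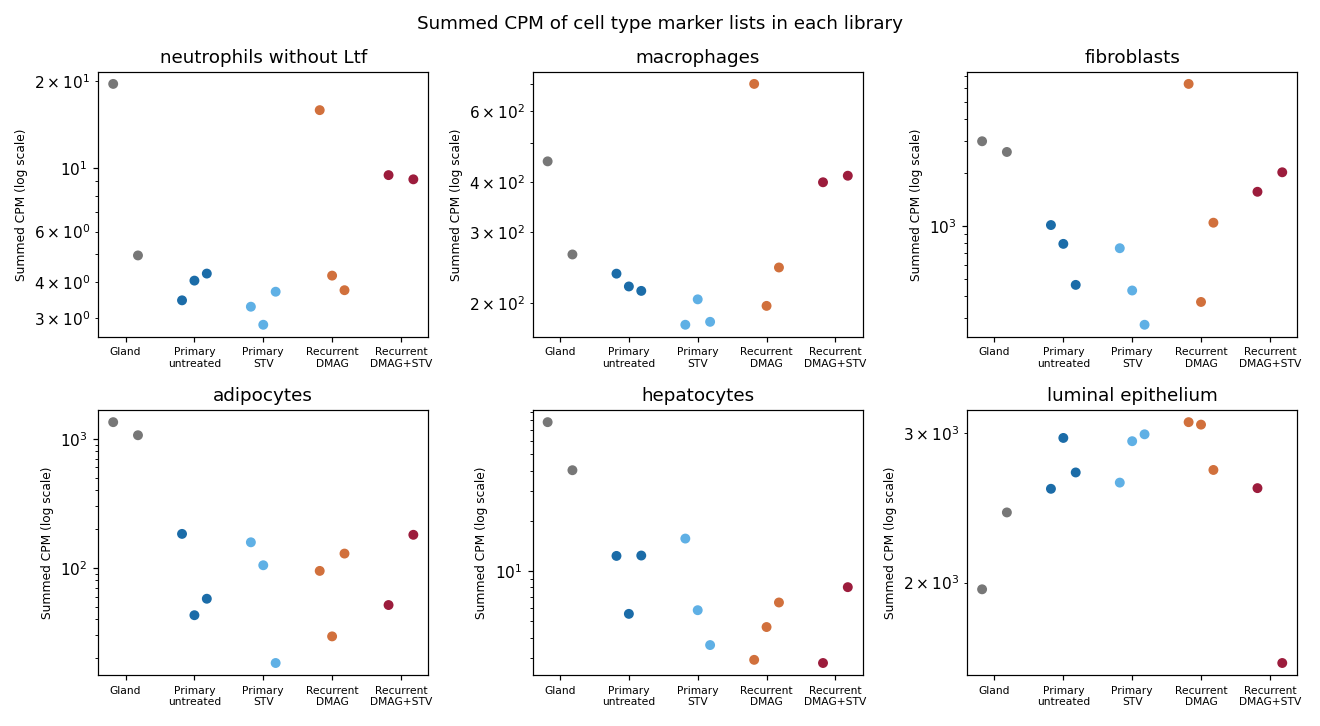
Summed CPM on a log axis of 6 marker lists in each library (points) for gland, primary untreated, primary stavudine (STV), recurrent 17-DMAG (DMAG) and recurrent 17-DMAG plus stavudine tumors. Macrophage genes sum to 399 and 414 CPM in the recurrent stavudine tumors and to 702 in recurrent 17-DMAG tumor 1, against 176 to 245 in the other tumors, and hepatocyte genes to at most 15.7 CPM in any tumor.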

How the data were processed

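RNA from 11 tumors and 2 glands was depleted of ribosomal RNA, made into stranded libraries and sequenced by the authors, who demultiplexed with bcl2fastq 2.20, used STAR for alignment to GRCm38 (mm10) and featureCounts of Subread 1.6.2 for counts per gene on the UCSC annotation. The deposited values are raw counts per gene, not normalized. The strand setting, the treatment of read mates and that of reads with several positions are not given in the sources used here. Groups were taken from the labels. All 24421 symbols were read, and genes were filtered with filterByExpr, leaving 16870 for the 11 tumors and 17135 for all 13 libraries. In R 4.3.3, edgeR 4.0.16 fitted TMM-scaled counts with robust quasi-likelihood tests, two-sided, adjusted by Benjamini and Hochberg over all genes of a contrast. Calls used an adjusted p under 0.05. The step was tested on simulated data that had less spread than these tumors and large changes only in genes above the lowest levels. How it fares at the spread of these tumors, or for changes at low counts, was not tested. Log2 CPM used a prior count of 2. Correlations used genes whose log2 CPM averaged at least 1. From the lists, genes past the adjusted threshold and the 4 with the smallest p in each contrast were named, and other list genes in the text were picked after their values were seen. Levels per kilobase used exon lengths of GENCODE on GRCm38. DESeq2 1.42.0, limma 3.58.1 with voom, other scalings and filters, a replicate block and leaving out each library were the alternatives. The members and lists were chosen with earlier results of these data known.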

Additional observations from a re-analysis of the deposited data

Results flagged for a closer look

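The direction of the stavudine difference was opposite in primary and in recurrent tumors for 5 members: every primary stavudine tumor was below the mean log2 CPM of the primary untreated tumors, and both recurrent 17-DMAG plus stavudine tumors were above the mean of the recurrent 17-DMAG tumors. The difference between the arms was not tested, and Chil1 had been selected for its level in the recurrent arm. In the primary arm the 2 groups overlapped for each of these members. The share of all genes with such a pattern was not taken, so nothing is read from the count of 5. On mean log2 CPM, the stavudine difference of Chil1 was -0.62 among primary tumors and 3.44 among recurrent tumors, 4.06 apart. Lcn2 stood at -0.54 and 0.91, 1.45 apart. Il13ra1 stood at -0.32 and 0.93, 1.25 apart. Saa2 stood at -1.18 and 1.29, 2.47 apart, with 2 to 20 counts in each primary tumor. Socs3 stood at -0.55 and 0.48, 1.03 apart. For Saa2 and Socs3 the recurrent value has the other sign in the edgeR fit on counts (-1.67 and -0.28), where recurrent 17-DMAG tumor 1 weighs more than in a mean of logarithms.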

How the results depend on the processing

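In all, 962 values of 50 member results were recomputed under 21 alternatives. Of these values 903 kept their direction and their side of the threshold (or, untested, moved by less than 1 SD), 15 lost a call, 9 gained one, 6 moved further and 29 changed direction, in 15 results. The causes of these changes were not tested. In the main fit only 1 member result passed the threshold, so keeping a side of it says little about the size of a change. Saa1 in recurrent 17-DMAG against primary untreated tumors went from 6.86 to 2.01 without recurrent 17-DMAG tumor 1 and counts as kept. Counts of members at an adjusted p under 0.05 were 0 under every alternative in the 3 tumor contrasts. Against mammary gland the count of 1 became 2 in DESeq2, where Saa1 and Saa2 had no adjusted p, and 0 with limma voom, library totals alone, the replicate block or the 2 groups alone. Leaving out 1 library also moved the count, to 4 without recurrent 17-DMAG tumor 1. Leaving out a gland left 1 library in that group. Counts at an unadjusted p, added after the data were seen, moved as follows. For recurrent 17-DMAG against primary untreated, 5 became 0 with limma voom, 2 with the replicate block and 1 to 7 without 1 library. For stavudine among primary tumors, 0 became up to 1 without 1 library (range 0 to 1). For stavudine among recurrent tumors, 1 became 2 with DESeq2 and without the filter, and 1 to 5 without 1 library. Against the gland, 4 became 1 with limma voom. The share of all genes was not taken under most alternatives, so nothing is read from how these counts moved. Whether the replicate numbers pair the tumors is not known. After centering each group, r between same-numbered libraries was -0.30 to 0.22 over 15 pairs, 3 of them above 0.1. In a group of 2 the centered values mirror each other, so these r values cannot exclude a pairing. The block changed 1 direction.

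Changes of direction were as follows, as log2 fold changes. For recurrent 17-DMAG against primary untreated tumors, leaving out 1 library gave Chil1 -0.050 to 1.01 and Lcn2 -0.21 to 0.56. For stavudine among primary tumors, limma voom gave Hp -0.97, and leaving out 1 library gave -0.68 to 0.71 for Hp, -0.32 to 0.58 for Saa1, -0.79 to 1.00 for Saa3 and -0.15 to 0.0027 for Stat3. For stavudine among recurrent tumors, limma voom gave Saa1 1.24, Saa2 1.42, Saa3 0.20 and Socs3 0.53, the replicate block gave Saa3 0.043, and leaving out 1 library gave -0.55 to 0.74 for Hp, -2.17 to 3.28 for Saa1, -2.25 to 3.63 for Saa2, -1.56 to 0.10 for Saa3, -0.75 to 1.48 for Socs3 and -0.39 to 0.40 for Stat3. Against the gland, library totals alone gave Stat3 0.19, and leaving out 1 library gave -0.24 to 1.38 for Il13ra1 and -0.20 to 0.94 for Lcn2. Where 1 library was left in a group, its spread was assumed to be that of the other groups. At 3 counts as the limit of detection, Saa3 changes in tumors could not be read.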

Other observations

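In each of the 13 libraries, among genes with 1 to 19 counts, between 71.1% and 75.1% had an even count, while among genes with more than 500 counts the share was 49.2% to 50.4%. The counts of Saa3 in the 11 tumors, 0 to 38, were all even.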
